A study of Mus musculus with 16 samples.

Results

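Fatty acid synthesis, storage and oxidation were followed in the mouse pituitary through 47 genes, which were chosen by name for their role in fatty acid metabolism. The list covers 5 synthesis genes, 7 desaturases and elongases, 8 genes of fatty acid uptake, binding and activation, and 8 of storage and lipolysis. A further 4 were grouped under mitochondrial entry, 10 under beta-oxidation and 5 under nuclear receptors and fuel switches. All 47 genes were found among the 17362 genes with a value, and 44 of them were among the 14345 genes tested. The other 3, *Plin4*, *Ppara* and *Pparg*, had a mean under 1 over the 16 mice and are given as values. The question put to the list was whether the pituitary responds to 17 weeks of high-fat feeding.

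Bulk RNA-seq was made from the pituitaries of 16 females aged 27 weeks, 1 library per mouse, and the design has 4 groups of 4. Controls carried floxed alleles (Esr1 fl/fl) and kept *Esr1*, the gene for oestrogen receptor alpha. Mutants (Esr1Nkx2-1Cre) carried the same floxed alleles and a Cre recombinase driven by *Nkx2-1*, which removes *Esr1* from cells with a history of *Nkx2-1* expression. This lineage includes ventral hypothalamus and the neural posterior lobe, so the deletion is not limited to a pituitary cell type. Each genotype was fed either a standard diet (SD, called chow in the labels) or a high-fat diet (HFD) for 17 weeks, on a mixed background that includes CD-1. Replicates are separate animals. Values are a normalised abundance, taken to be per length, and are called levels, and they are listed for replicates 1 to 4 of a group in that order. Differences are on the log2(level + 0.5) scale, which understates the change of genes with low levels.

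Cells build fatty acids from acetyl-CoA with ATP-citrate lyase, acetyl-CoA carboxylase and fatty acid synthase, under the transcription factor SREBP-1, and then desaturate and elongate them. Fatty acids from blood lipids are freed by lipoprotein lipase at the vessel wall, cross endothelium and cell membranes with CD36 and fatty acid binding proteins, and are activated to acyl-CoA before they are stored in lipid droplets or passed through the carnitine shuttle into mitochondria for beta-oxidation. In liver, heart and muscle, fatty acids acting through PPAR receptors raise targets such as *Pdk4*, *Angptl4*, *Plin2* and *Cpt1a*, which is why those genes are read as markers of fatty acid load.

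The levels summed to between 908897 and 1335782 per mouse, and the number of reads behind each level is unknown. The 7 anterior pituitary genes checked, among them *Prl*, *Gh* and *Cga*, summed to between 329895 and 603628 in every mouse. *Esr1* was lower in mutants than in controls on SD, at 18.6 ± 5.77 against 38.9 ± 7.32 (SD, n = 4, adjusted p = 0.0409), and on HFD the means were 29.0 ± 5.53 and 37.3 ± 9.29 (n = 4, adjusted p = 0.696). Replicate 1 of the mutants on SD (animal P357) and replicate 4 of the controls on HFD (animal P392) stood apart from the other libraries. P357 had the largest sum of levels, 1335782, and the most genes listed at 0. There were 533 such genes in P357, and P358 came next with 310. The 4 posterior lobe markers summed to 0.806 in P357 and 0.853 in P392, against at least 5.53 in every other mouse. The sum of the 4 melanotroph markers was lowest in the same animals. Values from fits without these libraries are given beside several of the results.

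*Cd36* had the largest difference of the 44 members tested over the 6 comparisons. Its gene lies on the minus strand of chromosome 5, at chr5:17781690-17888801 (GRCm38, GENCODE M21). The 250 bases before 1 of its annotated starts (RefSeq, GRCm38.p6, chr5:17835897-17836146, minus strand, inside the GENCODE gene) are shown because this gene leads the genotype comparison below. Capitals mark 1 CCAAT box and 2 GC boxes (GGGCGG) in the direction of the gene.
*Cd36*: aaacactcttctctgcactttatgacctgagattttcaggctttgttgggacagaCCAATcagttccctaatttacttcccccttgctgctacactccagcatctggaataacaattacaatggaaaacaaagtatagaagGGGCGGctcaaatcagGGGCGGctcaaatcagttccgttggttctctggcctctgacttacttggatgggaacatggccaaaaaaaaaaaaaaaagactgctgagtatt
Such promoter windows, from 250 bases before to 50 after a start, were given for 37 of the 47 members. Both strands of each were searched. An oestrogen response element (GGTCANNNTGACC) and a direct repeat bound by PPAR receptors (AGGTCANAGGTCA) matched no member window, and they matched 0.0700% and 0.0396% of all 32851 windows. The sterol regulatory element (TCACNCCAC) matched 3 of the 37 members, those of *Acsl1*, *Ehhadh* and *Ucp2*, which is 8.11% against 1.24% of all windows. CCAAT boxes were found in 20 members (54.1% against 37.4%), GC boxes in 27 (73.0% against 35.7%) and E-boxes (CACGTG) in 3 (8.11% against 7.15%). A member was counted if any of its windows matched, whereas the share over all windows counts each of the 32851 windows, from 27025 genes, by itself. A gene with several windows has more chances of a match, so these percentages are unlike measures. They cannot show whether the members hold an excess, which was not tested. These matches are letters in a window and say nothing of binding.

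Levels of the members spanned a wide range. *Ucp2*, a mitochondrial carrier that lowers the yield of oxidation, was highest with a mean level of 382.9 over the 16 mice, and *Plin4*, a lipid droplet coat protein of fat cells, was lowest at 0.573. Among synthesis genes the mean levels ran from 3.65 for *Acacb* to 86.0 for *Srebf1*, among desaturases and elongases from 2.20 for *Scd1* to 88.8 for *Scd2*, and among uptake, binding and activation genes from 4.51 for *Fabp3* to 35.6 for *Acsl3*. In beta-oxidation they ran from 4.32 for *Ehhadh*, a peroxisomal enzyme, to 74.9 for *Hadha*. In the group named mitochondrial entry they ran from 16.7 for *Cpt2* to 35.2 for *Cpt1c*. Storage genes ran from *Plin4* to 30.7 for *Pnpla2*, the first lipase of the lipid droplet. The receptors *Ppara* and *Pparg* had mean levels of 0.839 and 0.581, whereas *Ppard* had 13.5. Of 7 adipocyte markers, the 2 with values, *Plin1* and *Retn*, summed to at most 2.26 in any mouse.

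High-fat feeding moved none of the 44 members past the threshold. Over both genotypes, 0 members had an adjusted p under 0.05 by limma with Benjamini-Hochberg adjustment over all genes, and 0 had an unadjusted p under 0.05. Of the 14345 genes tested, 1 was called (0.00697%) and 733 (5.11%) had an unadjusted p under 0.05. The count of 0 unadjusted members changed with the mice left out. It was 3 without P357 (5.28% of all genes), 1 without P392 (*Angptl4*, 4.11% of all genes) and 2 without both (*Scd1* and *Angptl4*, 5.14% of all genes). Mice that do not stand apart changed it too. The count was 2 without replicate 3 (5.44% of all genes) or replicate 4 (6.73%) of the mutants on SD. Without replicate 3 of the controls on HFD it was 1 (6.74%). After adjustment 0 members passed in each of these fits. Without both P357 and P392 the sign of the difference changed in 10 of the 44 members. These were *Scd2*, *Elovl5*, *Lpl*, *Cd36*, *Plin3*, *Cpt1a*, *Slc25a20*, *Acadm*, *Acads* and *Ucp2*. The called gene was *Plat*, which is not a member and fell by 0.47 on HFD. The median difference over the members was 0.03 and over all genes tested 0.01, with 26 members higher and 18 lower. The differences ran from -0.43 for *Scd1* to 0.40 for *Fabp4*. The 95% interval of the difference lay within -1 and 1 for all 44 members and within -0.5 and 0.5 for 34, before any correction for 44 intervals. This bound is for the average over both genotypes with all mice, in which opposite changes cancel. Within a genotype the interval lay within -1 and 1 for 39 of 44 members in controls and 38 in mutants. It did not for *Fads2*, *Cd36* and *Angptl4* in both, *Scd1* and *Fabp4* in controls, and *Fabp5*, *Acsl4* and *Pdk4* in mutants.

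**Figure D1:**
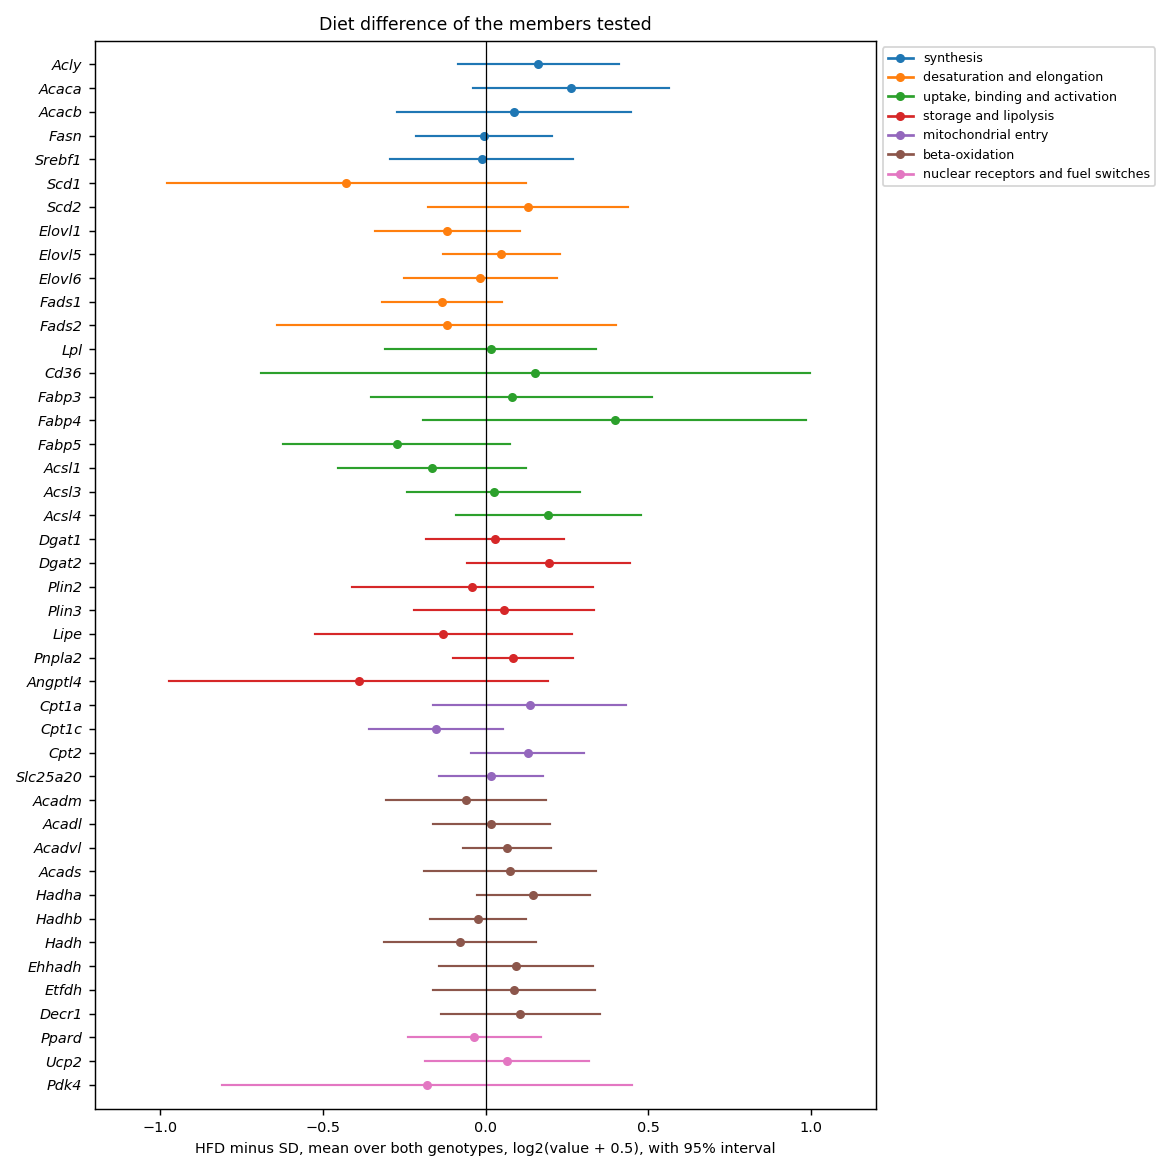
HFD minus SD averaged over both genotypes for the 44 members tested, on the log2(level + 0.5) scale, with points for the difference, bars for its 95% interval and colours for the role. Every bar crosses 0, and the widest belong to *Cd36*, *Pdk4*, *Fabp4*, *Angptl4* and *Scd1*.

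The synthesis genes had a median diet difference of 0.09. *Acaca*, which codes for the acetyl-CoA carboxylase that commits carbon to synthesis, read 8.84, 10.1, 5.92 and 9.55 in controls on SD, 8.38, 10.8, 7.75 and 10.4 in controls on HFD, 4.85, 7.61, 6.81 and 10.2 in mutants on SD and 9.40, 9.16, 8.93 and 10.9 in mutants on HFD. It had the smallest p of all members in this comparison and its groups overlapped, with a difference of 0.26 (SE 0.14, adjusted p = 0.910). *Fasn*, the synthase itself, read 44.9, 46.3, 35.1 and 43.4 in controls on SD, 46.999, 29.3, 38.8 and 46.0 in controls on HFD, 43.4, 39.4, 35.1 and 45.1 in mutants on SD and 46.6, 41.8, 40.6 and 42.9 in mutants on HFD. The 4 groups of *Fasn* covered one another and the difference was -0.01, with an interval from -0.21 to 0.20. *Srebf1* read 109.6, 62.7, 54.9 and 63.0 in controls on SD, 96.4, 64.4, 67.1 and 86.6 in controls on HFD, 103, 119, 86.0 and 102 in mutants on SD and 95.03, 93.0, 95.8 and 78.0 in mutants on HFD. Its diet difference was -0.01 (SE 0.13), and its exons overlap those of *Rai1* on the opposite strand. *Acly* and *Acacb* differed by 0.16 and 0.09 (both with intervals across 0).

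Among desaturases, *Scd1*, whose product makes monounsaturated fatty acids, read 2.21, 5.25, 3.29 and 2.86 in controls on SD, 1.27, 2.64, 1.74 and 1.28 in controls on HFD, 0.366, 2.70, 2.53 and 2.44 in mutants on SD and 1.64, 1.52, 2.03 and 1.38 in mutants on HFD. In controls 3 of the 4 HFD levels lay under all SD levels, and the group means were 3.40 ± 1.31 on SD and 1.73 ± 0.643 on HFD (SD, n = 4). The difference over both genotypes was -0.43 (SE 0.26, adjusted p = 0.910), and without P357 and P392 it was -0.61 (SE 0.18, adjusted p = 0.601). In controls alone it was -0.79 (SE 0.37), with an adjusted p of 0.998 and an exact permutation p of 0.0571, where 0.0286 is the smallest p that 4 against 4 mice allow. *Scd2*, its more abundant relative, read 92.6, 100.2, 98.1 and 98.4 in controls on SD, 88.3, 94.9, 96.7 and 87.7 in controls on HFD, 37.0, 89.5, 84.8 and 90.9 in mutants on SD and 97.2, 85.1, 89.9 and 89.4 in mutants on HFD. Apart from P357 the 16 levels of *Scd2* lay between 84.8 and 100.2, and the diet difference was 0.13 (SE 0.15). *Scd1* and *Scd2* share near-identical stretches with each other and with other *Scd* genes, so reads between them may have been split. The elongases *Elovl1*, *Elovl5* and *Elovl6*, which lengthen saturated and unsaturated chains, differed by -0.12, 0.05 and -0.02, and the delta-5 and delta-6 desaturases *Fads1* and *Fads2* by -0.13 and -0.12.

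The 8 genes of uptake, binding and activation had a median diet difference of 0.05. *Lpl*, *Cd36* and *Fabp3*, the binding protein of heart and muscle, differed by 0.01, 0.15 and 0.08 over both genotypes. Without P392 the differences of *Lpl* and *Cd36* were -0.11 and -0.15, and without P357 and P392 they were -0.18 and -0.30, each with an adjusted p above 0.9. *Fabp4* differed by 0.40 (SE 0.28, interval -0.19 to 0.98), the largest positive difference of the list. Without P357 and P392 that difference was 0.29. *Fabp5* differed by -0.27 (SE 0.16), with an interval from -0.62 to 0.08. The acyl-CoA synthetases *Acsl1*, *Acsl3* and *Acsl4*, which trap fatty acids in the cell as acyl-CoA, differed by -0.17, 0.02 and 0.19. The per-mouse levels of *Cd36*, *Fabp4*, *Fabp5*, *Lpl* and *Acsl4* are given with the comparisons within genotypes and between them, since mice of 1 diet differed there by genotype.

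The 7 storage and lipolysis genes tested had a median diet difference of 0.03. *Plin2*, the coat protein that rises with lipid droplets, read 7.33, 10.7, 14.9 and 12.9 in controls on SD, 6.05, 10.9, 16.7 and 13.5 in controls on HFD, 11.7, 11.8, 11.9 and 12.1 in mutants on SD and 11.2, 10.02, 10.5 and 13.3 in mutants on HFD. The spread among controls of 1 diet was wider than any difference between diets (difference -0.04, interval -0.41 to 0.33). *Angptl4*, a secreted inhibitor of lipoprotein lipase, read 3.82, 5.77, 4.49 and 2.79 in controls on SD, 1.87, 2.94, 1.72 and 5.97 in controls on HFD, 1.46, 4.64, 3.13 and 4.60 in mutants on SD and 1.40, 3.73, 3.73 and 1.89 in mutants on HFD. The diet groups overlapped in both genotypes, and the difference was -0.39 (SE 0.27, adjusted p = 0.910). The lowest level on SD came from P357 and the highest on HFD from P392, and without these mice the difference was -0.71 (SE 0.22, adjusted p = 0.701). *Dgat2*, which codes for an enzyme of the last step of triglyceride synthesis, read 7.31, 9.04, 7.83 and 8.94 in controls on SD, 8.49, 13.2, 8.73 and 11.03 in controls on HFD, 6.79, 11.6, 11.2 and 8.99 in mutants on SD and 10.4, 9.79, 9.93 and 10.4 in mutants on HFD. The groups of *Dgat2* overlapped at a difference of 0.19 (SE 0.12). *Dgat1*, *Plin3*, *Lipe* and *Pnpla2* lay between -0.13 and 0.08.

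Most genes grouped under mitochondrial entry and beta-oxidation had narrow intervals. Their SE lay under the median over the members tested (0.118), except for *Cpt1a* (0.140) and *Acads* (0.124). *Cpt1a*, the rate-limiting carnitine palmitoyltransferase, read 25.7, 35.9, 33.3 and 38.1 in controls on SD, 28.1, 31.8, 36.6 and 44.3 in controls on HFD, 17.8, 35.1, 32.1 and 35.8 in mutants on SD and 31.5, 35.3, 34.7 and 32.0 in mutants on HFD. With a difference of 0.13 (interval -0.16 to 0.43), its lowest level belonged to P357 and its highest to P392. *Hadha*, the alpha subunit of the mitochondrial trifunctional protein, read 83.5, 79.5, 74.1 and 70.3 in controls on SD, 82.1, 78.7, 84.9 and 69.9 in controls on HFD, 49.7, 68.9, 75.5 and 69.6 in mutants on SD and 81.9, 80.9, 73.0 and 76.3 in mutants on HFD. *Hadha* differed by 0.15 (SE 0.08, adjusted p = 0.910) and *Hadhb*, the beta subunit of the same complex, by -0.02 (SE 0.07). The acyl-CoA dehydrogenases *Acadm*, *Acadl*, *Acadvl* and *Acads*, which take the first step for chains of different length, differed by between -0.06 and 0.08, and *Acadvl* had the narrowest interval of all members, from -0.07 to 0.20. *Hadh*, *Ehhadh*, *Etfdh* and *Decr1* lay between -0.08 and 0.11. The other genes of the group named mitochondrial entry, *Cpt1c*, *Cpt2* and *Slc25a20*, differed by -0.15, 0.13 and 0.02.

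Of the receptors and fuel switches, *Pdk4*, the kinase that turns pyruvate away from oxidation when fat is burnt, read 2.64, 4.41, 7.58 and 8.04 in controls on SD, 3.13, 6.76, 2.92 and 10.8 in controls on HFD, 2.43, 7.10, 5.20 and 8.47 in mutants on SD and 3.21, 3.81, 5.47 and 4.07 in mutants on HFD. The levels of *Pdk4* overlapped between all 4 groups, and the diet difference of -0.18 had an interval from -0.81 to 0.45. P357 had the lowest level and P392 the highest, and without them the difference was -0.51 (SE 0.25, adjusted p = 0.988). *Ppard* and *Ucp2* differed by -0.03 and 0.06. *Ppara* ranged from 0.357 to 1.84 and *Plin4* from 0.251 to 0.888 over the 16 mice. *Pparg* ranged from 0.0905 to 2.30, and its levels above 1 came from 1 control and 1 mutant on SD. The exact permutation p for diet over both genotypes was 0.579, 0.152 and 0.207 for *Ppara*, *Plin4* and *Pparg*.

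**Figure D2:**
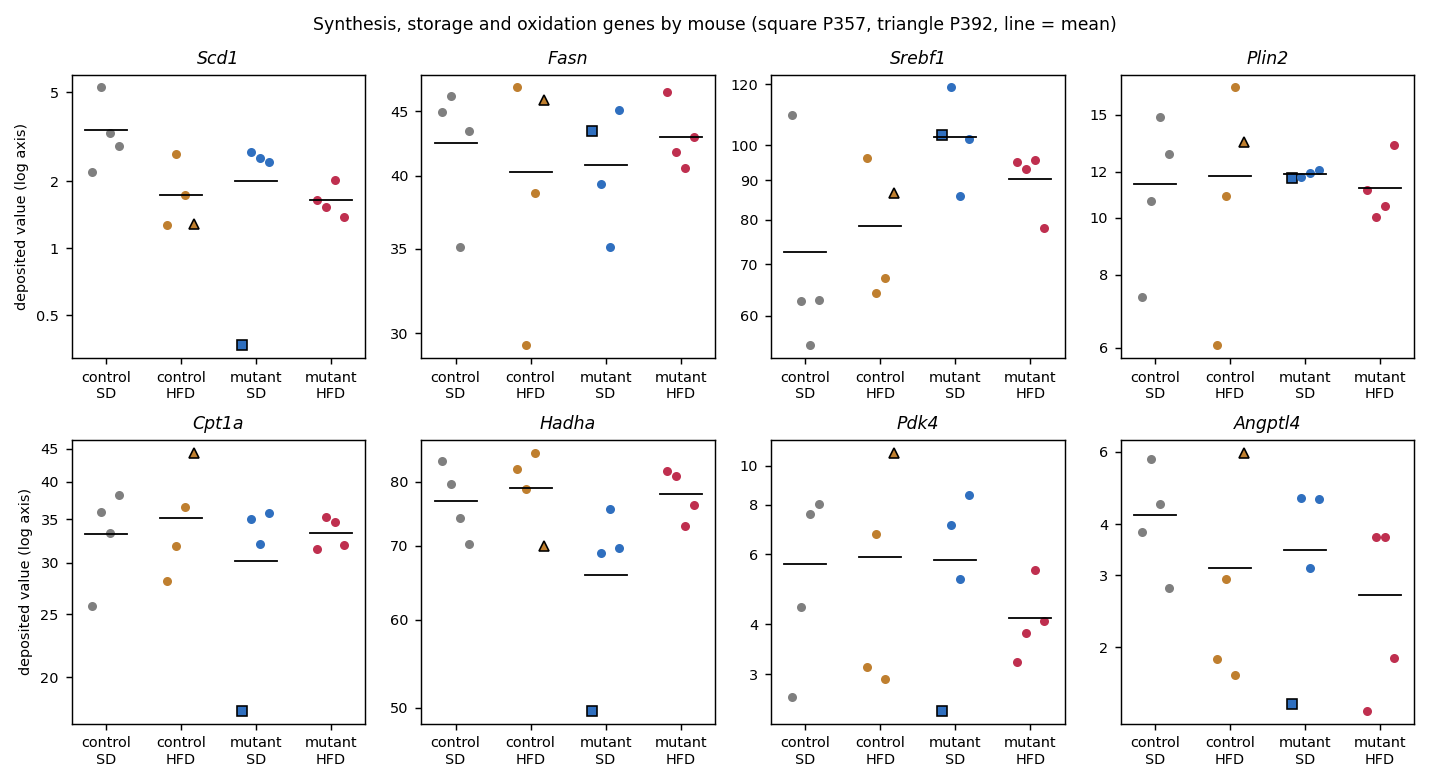
Levels of *Scd1*, *Fasn*, *Srebf1*, *Plin2*, *Cpt1a*, *Hadha*, *Pdk4* and *Angptl4* in each mouse on log axes, by genotype and diet, with lines for group means, a square for P357 and a triangle for P392. The diet groups overlap within each genotype, and P357 has the lowest of the 16 levels in *Scd1*, *Cpt1a*, *Hadha* and *Pdk4*.

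Within each genotype the diet differences of single members were also short of the threshold. In controls 0 members passed after adjustment and 1 (*Scd1*) had an unadjusted p under 0.05, where 0 of all genes passed (0%) and 592 (4.13%) had an unadjusted p under 0.05. The unadjusted count changed with the mouse left out. It was 4 without replicate 1 of the controls on SD (8.73% of all genes) and 4 without replicate 3 of the controls on HFD (6.35%). It was 0 without replicate 2 of the controls on SD (2.65%). Without P392 it was 3 (*Lpl*, *Angptl4* and *Ppard*), against 3.21% of all genes. Without P357 and P392 it was 4, as *Scd1* joined these, against 5.14% of all genes. The differences of *Lpl*, *Angptl4* and *Ppard* were then -0.50, -0.81 and -0.29, and 0 members passed after adjustment in both fits without P392. *Slc25a20*, the carnitine carrier, read 19.3, 18.8, 18.9 and 20.4 in controls on SD, 21.2, 21.3, 21.8 and 24.8 in controls on HFD, 24.9, 22.9, 24.2 and 25.5 in mutants on SD and 17.3, 23.6, 22.1 and 24.4 in mutants on HFD. It was the 1 member of 44 (2.27%) whose control groups did not overlap, where 2.61% of all genes did not, and its difference was 0.20 in controls (SE 0.11, adjusted p = 0.998). *Decr1*, an enzyme for the oxidation of unsaturated fatty acids, read 10.03, 9.35, 9.21 and 11.8 in controls on SD, 12.4, 11.8, 10.9 and 14.8 in controls on HFD, 9.48, 10.6, 16.3 and 9.14 in mutants on SD and 10.1, 11.5, 10.9 and 9.59 in mutants on HFD. The highest control on SD reached into the range of the controls on HFD, with a difference of 0.29 (SE 0.16, adjusted p = 0.998). *Fabp4* and *Fads1*, the other members with the smallest p in controls, differed by 0.81 and -0.25 with P392 and by 0.36 and -0.14 without it.

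In mutants 0 members passed after adjustment (0% of all genes did) and 3 of 44 had an unadjusted p under 0.05, or 6.82% against 5% of all genes. They were *Acsl4*, *Fabp5* and *Hadha*, and without P357 and P392 they were *Acsl4* and *Acsl1* (4.18% of all genes). The diet difference of *Hadha* in mutants was 0.26 with all mice and 0.13 without P357 and P392. *Acsl4*, an acyl-CoA synthetase with a preference for arachidonic acid, (chrX:142317993-142390535, minus strand) read 8.83, 6.39, 5.04 and 9.42 in controls on SD, 5.18, 6.09, 5.83 and 7.33 in controls on HFD, 5.40, 7.44, 6.37 and 8.76 in mutants on SD and 11.02, 11.2, 11.8 and 9.39 in mutants on HFD. All 4 mutants on HFD lay above all 12 other mice except 1 control on SD, which lay above the lowest of them. Within mutants the diet groups of *Acsl4* did not overlap, as in 3.31% of all genes, and the difference was 0.62 (SE 0.19, adjusted p = 0.813, exact permutation p = 0.0286). In controls it was -0.23 (SE 0.19), and the diet difference in mutants minus that in controls was 0.85 (interval 0.28 to 1.42, adjusted p = 0.924). *Fabp5*, a fatty acid binding protein, read 10.8, 5.73, 5.09 and 7.58 in controls on SD, 5.83, 7.47, 6.92 and 8.49 in controls on HFD, 16.1, 12.5, 10.2 and 12.9 in mutants on SD and 8.05, 9.50, 5.63 and 11.6 in mutants on HFD. Mutants on SD were highest on average, and the diet difference in mutants was -0.57 (SE 0.23, adjusted p = 0.813). *Fabp5* shares near-identical sequence with other genes, of which *Gm6166* has a value. No member passed the test of the interaction, as was so for all genes (0%), and 2 members, *Acsl4* and *Slc25a20*, had an unadjusted p under 0.05, where 4.2% of genes did.

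Outside the 47 members, a list of 103 further fatty acid metabolism genes was read in the same way, and 91 were tested. None passed for diet over both genotypes. At an unadjusted p under 0.05, 1 was higher and 6 were lower on HFD, where 2.5% of all genes were higher and 2.61% lower. *Acot1*, an acyl-CoA thioesterase and known PPAR alpha target, read 4.20, 5.53, 6.97 and 3.13 in controls on SD, 1.99, 3.56, 2.25 and 3.36 in controls on HFD, 8.49, 7.28, 6.78 and 5.30 in mutants on SD and 2.88, 2.66, 4.07 and 2.01 in mutants on HFD. The difference was -0.71 in controls, where the diet groups overlapped, and -1.15 in mutants, where they did not, and over both genotypes it was -0.93 (SE 0.18, adjusted p = 0.217). It had the smallest p of the 91 genes, and *Acot1* shares near-identical sequence with *Acot2* and *Acot6*. *Dbi*, the acyl-CoA binding protein, read 73.9, 49.0, 61.9 and 53.4 in controls on SD, 64.9, 61.3, 52.0 and 55.4 in controls on HFD, 98.1, 89.998, 81.7 and 100.3 in mutants on SD and 55.5, 59.0, 48.7 and 63.3 in mutants on HFD. Mutants on SD stood above all other groups, with a diet difference in mutants of -0.71 (SE 0.13, adjusted p = 0.216). *Cpt1b*, the muscle form of the entry enzyme, read 13.0, 4.91, 14.9 and 5.89 in controls on SD, 2.37, 6.20, 8.64 and 2.67 in controls on HFD, 6.90, 4.19, 5.93 and 3.77 in mutants on SD and 3.17, 1.94, 3.10 and 4.50 in mutants on HFD. Its groups overlapped at a difference of -0.78 over both genotypes (SE 0.28, adjusted p = 0.8995).

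Between mutants and controls on SD, 3 members passed at an adjusted p under 0.05, of which 2 were higher in mutants (*Cd36* and *Fabp4*) and 1 lower (*Fads1*). Of all genes 1.84% passed, 1.37% higher and 0.474% lower. At an unadjusted p under 0.05 there were 10 of 44 members, or 22.7% against 19.9% of all genes, 6 of them higher and 4 lower where 10.9% and 9.02% of genes were. The median over the members was -0.02 and over all genes -0.01. The groups did not overlap in 8 of 44 members (18.2%), and in 10.6% of all genes.

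The other 7 members with an unadjusted p under 0.05 on SD did not pass after adjustment. Among them, *Fabp5*, *Srebf1*, *Acads* and *Slc25a20* had positive differences of 0.82, 0.54, 0.43 and 0.32 (adjusted p of 0.0760, 0.133, 0.190 and 0.116), and *Fads2*, *Hadh* and *Scd2* had negative ones of -1.35, -0.56 and -0.45 (adjusted p of 0.0564, 0.0746 and 0.238). *Hadh*, which codes for the short-chain 3-hydroxyacyl-CoA dehydrogenase, ranged from 19.1 to 27.9 in controls and from 14.9 to 18.6 in mutants on SD, without overlap. The difference of *Scd2* rested on P357, and without P357 and P392 it was -0.14 (SE 0.07, adjusted p = 0.236). *Scd2* was then no longer among the members with an unadjusted p under 0.05. There were 13 such members of 44 in that fit, where 22.9% of all genes had an unadjusted p under 0.05. No storage or lipolysis gene was among the 10 found with all mice.

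*Cd36*, the membrane receptor for long-chain fatty acids on endothelium, macrophages and other cells, read 2.76, 1.52, 0.923 and 0.963 in controls on SD, 1.99, 1.23, 1.53 and 10.7 in controls on HFD, 10.6, 40.5, 21.6 and 15.9 in mutants on SD and 16.3, 9.37, 9.04 and 33.4 in mutants on HFD. All 8 mutants lay above all controls except P392, whose level fell among the mutants. On SD the means were 22.1 ± 13.1 in mutants and 1.54 ± 0.857 in controls (SD, n = 4), a difference of 3.39 (SE 0.56, adjusted p = 0.0105). This call held in each of the 16 fits that left out 1 mouse, with adjusted p between 0.00038 and 0.0466. In the diet comparisons *Cd36* differed by 0.71 in controls and by -0.40 in mutants, both with intervals across 0. The difference in controls was 0.10 without P392, and that in mutants was -0.69 without P357 and P392.

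*Fabp4* (chr3:10204088-10208576, minus strand), the binding protein of capillary endothelium, macrophages and adipocytes, read 9.51, 5.78, 5.18 and 2.85 in controls on SD, 6.93, 7.29, 6.95 and 26.0 in controls on HFD, 29.6, 13.8, 17.0 and 13.9 in mutants on SD and 14.2, 18.8, 17.1 and 19.95 in mutants on HFD. Again all mutants lay above 7 of the 8 controls and P392 lay with the mutants. The difference on SD was 1.63 (SE 0.39, adjusted p = 0.0456). Leaving out any 1 of 13 mice took the adjusted p past 0.05, and it stayed under 0.05 without replicate 1 of the controls on SD or replicates 3 or 4 of the controls on HFD.

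*Fads1* and *Fads2* code for the desaturases that make arachidonic acid, eicosapentaenoic acid and related fatty acids. They sit 81141 bp apart on chromosome 19 on opposite strands (*Fads2* at chr19:10062765-10101746, minus, and *Fads1* at chr19:10182888-10196877, plus). *Fads1* read 31.9, 36.4, 36.2 and 38.9 in controls on SD, 28.9, 34.3, 34.6 and 23.7 in controls on HFD, 20.9, 25.9, 27.0 and 26.1 in mutants on SD and 26.3, 23.4, 23.2 and 25.4 in mutants on HFD. *Fads2* read 33.6, 53.6, 56.9 and 64.6 in controls on SD, 31.7, 50.3, 56.1 and 16.3 in controls on HFD, 10.3, 25.3, 22.9 and 24.5 in mutants on SD and 26.1, 18.6, 25.9 and 27.1 in mutants on HFD. For both genes every mutant lay under every control except P392, which lay among the mutants. On SD the difference was -0.52 for *Fads1* (SE 0.12, adjusted p = 0.0452) and -1.35 for *Fads2* (SE 0.35, adjusted p = 0.0564). The call of *Fads1* held in 4 of the 16 fits that left out 1 mouse, those without replicate 1 of the controls on SD or replicates 2, 3 or 4 of the controls on HFD.

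**Figure D3:**
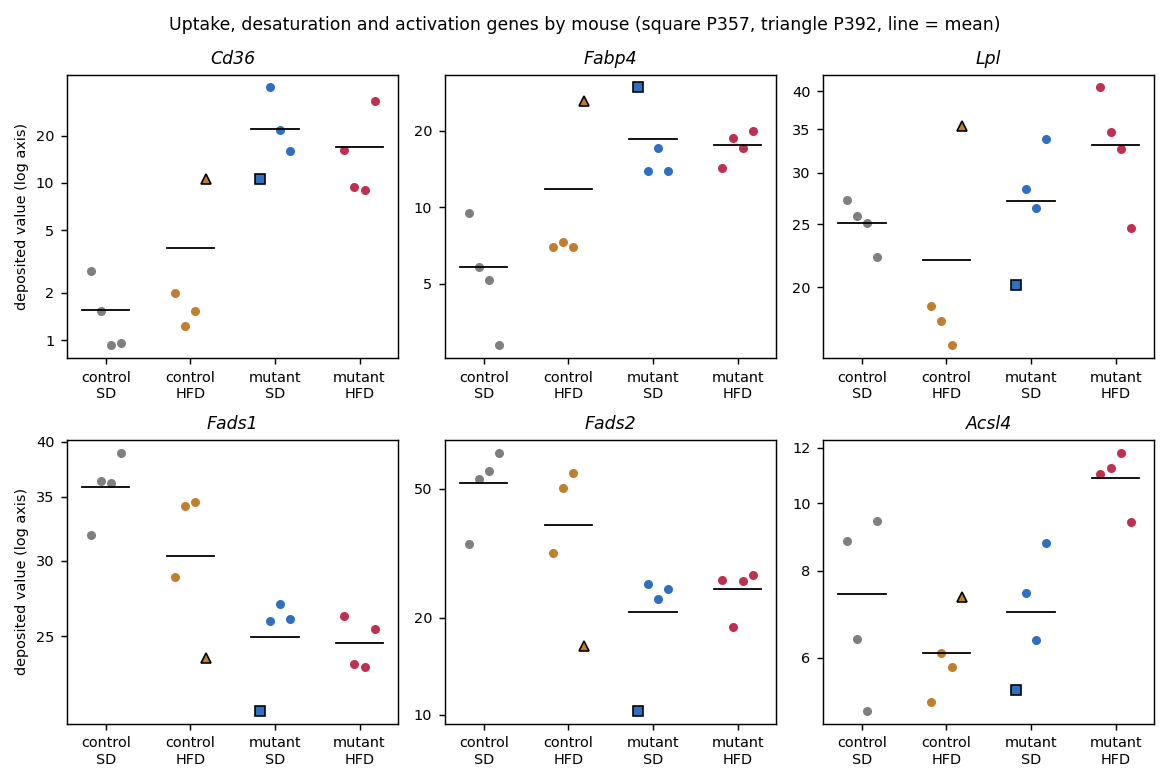
Levels of *Cd36*, *Fabp4*, *Lpl*, *Fads1*, *Fads2* and *Acsl4* in each mouse on log axes, by genotype and diet, with lines for group means, a square for P357 and a triangle for P392. In *Cd36*, *Fabp4*, *Fads1* and *Fads2* the triangle, a control on HFD, lies at the level of the mutants, and in *Acsl4* the mutants on HFD are highest on average.

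On HFD, 0 members and 0 of all genes (0%) passed for genotype, and 5 of 44 members (11.4%) had an unadjusted p under 0.05 against 10.2% of all genes. *Lpl*, which codes for lipoprotein lipase, read 27.2, 25.7, 25.1 and 22.3 in controls on SD, 18.7, 17.8, 16.3 and 35.3 in controls on HFD, 20.1, 28.3, 26.5 and 33.8 in mutants on SD and 40.6, 34.6, 32.6 and 24.7 in mutants on HFD. The 3 controls on HFD other than P392 had the lowest *Lpl* of all 16 mice, and HFD minus SD in controls was -0.25 with P392 and -0.50 without it (adjusted p = 0.998 and 0.9999). Mutant minus control on HFD was 2.28 for *Cd36* (SE 0.56, adjusted p = 0.211), 0.79 for *Acsl4* (SE 0.19, adjusted p = 0.205) and 0.63 for *Lpl* (SE 0.22, adjusted p = 0.333). Levels did not overlap in 2 members, *Acsl4* and *Acly*, which is 4.55% against 5.3% of all genes.

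This comparison turned on P392. Without it 4 members passed, *Cd36* at 2.89 (adjusted p = 0.00213), *Lpl* at 0.88 (0.00798), *Acsl4* at 0.87 (0.0216) and *Fabp4* at 1.24 (0.0311), where 4.55% of all genes passed. Without both P357 and P392, 7 members passed on HFD (7.42% of all genes), as *Fads1*, *Fads2* and *Acsl3* joined these. On SD the same fit had 5 members past the threshold, *Cd36*, *Fads1*, *Fads2*, *Hadh* and *Fabp4*, against 6.7% of all genes. Whether the genotype difference depends on the diet was tested by the interaction, which had an adjusted p of 0.924 for each of *Cd36*, *Fabp4*, *Fads1*, *Fads2*, *Lpl* and *Acsl4*. The comparisons on the same diet groups share mice with the diet comparisons above.

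**Figure D4:**
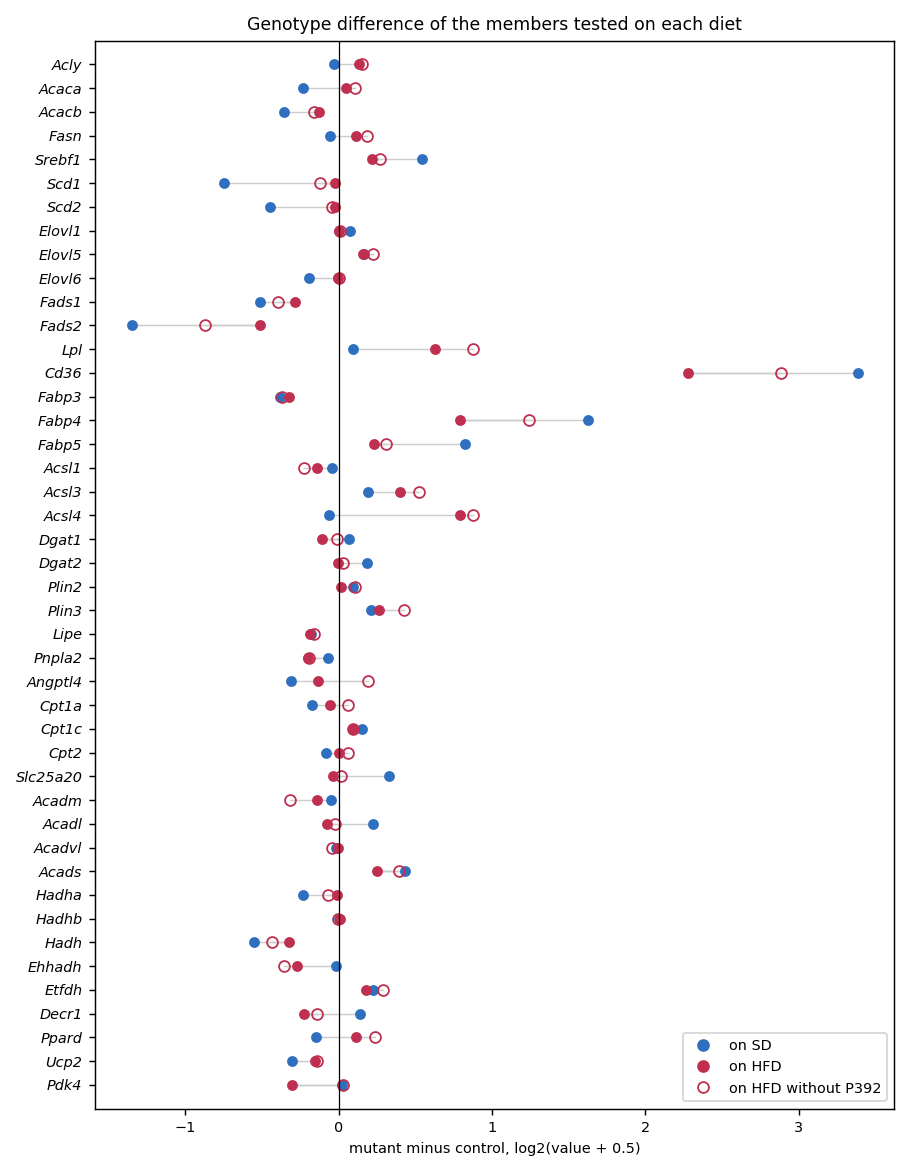
Mutant minus control for the 44 members tested, on the log2(level + 0.5) scale, on SD (blue), on HFD (red) and on HFD without P392 (open circles). *Cd36*, *Fabp4*, *Fads1* and *Fads2* have the same sign in all 3 sets, and without P392 the differences of these 4 genes on HFD are larger.

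Markers of endothelial cells had higher levels in mutants and in P392, as did *Cd36* and *Fabp4*. The 6 endothelial markers (*Pecam1*, *Cdh5*, *Kdr*, *Flt1*, *Plvap* and *Emcn*) summed to between 106 and 128 in controls on SD, 99.6 and 201 in controls on HFD, 161 and 212 in mutants on SD and 157 and 176 in mutants on HFD. The highest control was P392 at 201. All 6 were higher in mutants on both diets, with median differences of 0.58 on SD and 0.53 on HFD, and none passed by itself in limma (5 had an unadjusted p under 0.05 on SD and 4 on HFD). The 7 macrophage markers summed to between 44.9 and 60.6 in controls on SD and 77.8 and 184 in mutants on SD, and on HFD to between 41.7 and 127 in controls and 73.1 and 171 in mutants. None of these 7 passed by itself (4 had an unadjusted p under 0.05 on SD and 1 on HFD), and their median differences were 0.86 on SD and 0.56 on HFD. With the mean log2 level of the 6 endothelial markers as a covariate, a choice made after seeing the data, 0 members passed on SD. Of all genes 0 (0%) passed in this fit too. An unadjusted p under 0.05 was found in 6 of 44 members and in 6.91% of all genes. *Cd36* then differed by 2.28 (adjusted p = 0.427), *Fabp4* by 0.67 (0.749) and *Fads1* by -0.30 (0.720). The markers differ between the genotypes as the members do, so the covariate takes away part of the genotype difference too, and these cannot be told apart. The 5 red blood cell markers were also higher in mutants on SD (median 1.32, 4 with an unadjusted p under 0.05 and none past the threshold), and their part in the result was not tested. All 4 posterior lobe markers and all 4 melanotroph markers had negative differences on SD (medians -0.90 and -0.71), where none passed the threshold and 1 and 0 had an unadjusted p under 0.05. P357 weighs on these medians. Its melanotroph sum was 1678, whereas the other mutants on SD had 15209, 13745 and 12376, inside the range of controls on SD (11582 to 17499). On HFD, where P392 is a control, 3 of the 4 markers of each list were higher in mutants (medians 0.41 and 0.61). P357 and P392, which had the lowest sums of both lists, also had the lowest *Fads2* levels of the 16 mice (10.3 and 16.3). Without P357 and P392 *Fads1* differed by -0.43 and *Fads2* by -1.05 on SD (adjusted p = 0.0129 and 0.0134). In bulk tissue, more cells of a type and more RNA per cell cannot be told apart either.

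**Figure D5:**
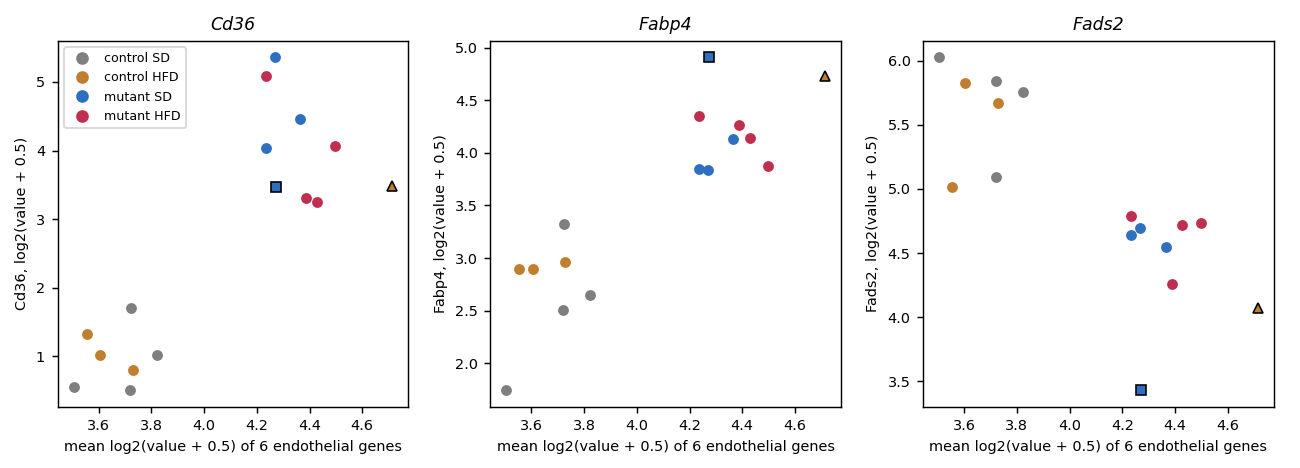
Log2(level + 0.5) of *Cd36*, *Fabp4* and *Fads2* in each mouse against the mean of the same quantity over 6 endothelial markers, by group, with a square for P357 and a triangle for P392. The mice form a cluster of 7 controls and a cluster of 8 mutants with P392.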

How the data were processed

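Bulk RNA-seq of whole pituitary was analysed from 16 mice, 1 library each. The deposited values are a normalised signal per gene: the authors quantified reads against the mouse transcriptome (mm10) with Kallisto in gene mode, and used Sleuth for their own tests. The scaling of the values, tool versions, annotation and use of strand are not given in the sources used here, and neither is the depth, so no interval that needs read counts is given. Kallisto abundances are normally per length, and the values were taken to be so where levels of different genes are set side by side.

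The 47 members, the list of 103 further fatty acid genes and the markers were chosen with earlier results of these data known. Symbols were matched to the Ensembl identifiers of the table. The 14345 genes whose levels averaged 1 or more entered a linear model of log2(signal + 0.5) in limma 3.58.1 (R 4.3.3). The model held a mean for each of the 4 groups, so that all mice shared one estimate of the spread, variances were moderated with a trend, and p-values were adjusted over these genes by Benjamini-Hochberg at a threshold of 0.05. Sleuth's likelihood-ratio test needs resampled abundances and was not used here. Single genes were also tested by a two-sided exact permutation test. The fit was tested on simulated data. Adjusted p-values in the text are limma's.

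Values in every mouse are given for members past the threshold, the 5 members with the smallest p in each diet comparison, the 3 in each genotype comparison, and *Pdk4*, *Angptl4*, *Plin2*, *Cpt1a*, *Fasn*, *Scd1*, *Scd2* and *Srebf1*. Further members are named by their role. Groups follow the labels, and replicate numbers follow accession order and pair no mice. Overlapping exons and transcripts of at least 90% identity over 100 bp were looked up in GENCODE M21 (GRCm38). Of the 47 members, 14 overlap exons of another gene and 17 share such sequence, and their values are less certain. Alternatives were pseudocounts of 0.1 and 1, no filter, a filter at a mean of 5, median scaling, quantile normalisation, variances moderated with no trend, a fit limited to the groups compared, a covariate for lower against upper animal numbers (P339 to P359, P381 to P392), leaving out P357 and P392, and leaving out each mouse. The endothelial covariate was added after seeing the data. The ranges of animal numbers are uneven over the groups. All controls on HFD had upper numbers and, of the controls on SD, only P383 did, so diet and range largely go together in controls. Lower numbers in mutants were P357 on SD and P339 and P341 on HFD.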

Additional observations from a re-analysis of the deposited data

Results flagged for a closer look

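Of 188 groups of 4 mice (47 members in 4 groups), 22 held 1 mouse whose gap to the nearest other exceeded Dixon's critical value, where chance gives about 1 in 20 groups. P357, a mutant on SD, accounted for 6 of them and P392, a control on HFD, for 6.

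In P357 the 6 levels were all below the other mutants on SD. *Acly* read 34.8 against 65.4 to 69.7 in the other 3 mice, *Scd1* 0.366 against 2.44 to 2.70, *Scd2* 37.0 against 84.8 to 90.9, *Elovl5* 31.3 against 43.7 to 44.7, *Fads2* 10.3 against 22.9 to 25.3 and *Ucp2* 209 against 385.8 to 388.5. They are genes of synthesis, desaturation and elongation and a mitochondrial carrier.

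In P392 the 6 levels were all above the other controls on HFD. *Cd36* read 10.7 against 1.23 to 1.99, *Fabp4* 26.0 against 6.93 to 7.29, *Lpl* 35.3 against 16.3 to 18.7, *Acsl3* 40.2 against 27.6 to 28.4, *Plin3* 12.1 against 7.07 to 7.82 and *Slc25a20* 24.8 against 21.2 to 21.8. Uptake and activation genes make up 4 of the 6.

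The other 10 were spread over 7 mice. *Srebf1* read 109.6 in P356 (controls on SD, others 54.9 to 63.0) and 78.0 in P388 (mutants on HFD, others 93.0 to 95.8), and *Etfdh* 47.4 in P356 (others 29.7 to 31.2). *Fads2* read 18.6 in P341 (mutants on HFD, others 25.9 to 27.1), *Fabp3* 6.61 in P388 (others 3.13 to 3.52), *Acadvl* 52.0 in P339 (mutants on HFD, others 64.4 to 66.3) and *Ppard* 12.4 in P339 (others 14.2 to 14.4). *Acsl3* read 24.9 in P383 (controls on SD, others 34.5 to 35.9). *Pparg* read 2.13 in P358 (controls on SD, others 0.249 to 0.449) and 2.30 in P381 (mutants on SD, others 0.124 to 0.448).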

How the results depend on the processing

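For diet, 0 members passed over both genotypes, in controls, in mutants and for the interaction in each of the alternatives run, including the 16 fits that each left out 1 mouse. With animal numbers as a covariate, members with an unadjusted p under 0.05 for diet went from 1 to 4 in controls (6.23% of all genes). In mutants they went from 3 to 6 (8.32% of all genes). For genotype on SD the count of 3 became 1 without the trend in the variances (*Cd36*), 5 without P357 and P392 and 0 with the endothelial covariate, and it ran from 1 to 7 when 1 mouse was left out, the highest without replicate 1 of the controls on SD (P356). Over all genes, the 264 called on SD became 961 without P357 and P392, 151 with the filter at a mean of 5 and 0 with the endothelial covariate, and ranged from 33 to 826 when 1 mouse was left out. On HFD the count of 0 members became 7 without P357 and P392 and ran from 0 to 4 when 1 mouse was left out. The causes of these changes were not tested. Leaving out 1 mouse, the diet difference over both genotypes ran from -0.14 to 0.10 for *Plin2*, -0.049 to 0.066 for *Fasn*, -0.026 to 0.19 for *Scd2* and -0.070 to 0.095 for *Srebf1*, so the sign of these small differences is not fixed. It was also -0.040 for *Cpt1a* and -0.015 for *Scd2* without P357 and P392, and 0.0081 for *Fasn* and 0.016 for *Srebf1* with animal numbers as a covariate. Of 741 values of single genes under an alternative, 682 kept their direction and side of the threshold, 33 fell short of it, 6 newly passed it and 20 changed sign. The 33 were values of *Fads1*, *Cd36* and *Fabp4* on SD, the results that had passed with all mice. Leaving out 1 mouse, *Fads1* fell short in 12 of 16 fits and *Fabp4* in 13. Under the other 11 alternatives *Fads1* fell short in 3, *Fabp4* in 4 and *Cd36* in 1. The other values had no call to lose, so the 682 do not measure how stable a call is. Read depth is unknown, so how far counting error limits the low genes *Plin4*, *Ppara*, *Pparg* and *Scd1* is unknown too. No paired analysis was possible because mice of different groups share no replicate number in the labels.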

Other observations

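Of the 91 further fatty acid genes tested, 2 passed for genotype on SD, where 1.84% of all genes passed, and both were higher in mutants. At an unadjusted p under 0.05 there were 16 on SD, or 17.6% against 19.9% of all genes. *Dbi* differed by 0.65 (SE 0.13, adjusted p = 0.0256), and *Gpihbp1*, which anchors lipoprotein lipase to capillary endothelium, by 1.73 (adjusted p = 0.0318). On HFD none of the 91 passed in limma, as was so for all genes (0%), and 6 had an unadjusted p under 0.05, or 6.59% against 10.2% of all genes.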
